A study of Mus musculus with 8 samples.

Results

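The 38 genes described here are classical interferon-stimulated effectors of the mouse, chosen by symbol from a list of interferon-induced genes outside the OAS, GTPase, Ifi200, Schlafen, IRF, STAT and nucleic acid sensor families. All 38 were found among the 53700 genes of the count table, and 34 of them passed the filter on low counts, as did 12132 genes in all. The study measured polyadenylated RNA in 8 pools of donor-derived bone marrow cells, with 1 library per combination of cell type (2) and donor genotype (4). The stem cells (HSC, CD48- CD150+) and multipotent progenitors (MPP, CD48+ CD150-) were sorted from the LSK gate, the lineage-negative marrow cells positive for Sca-1 and Kit. Donors were wild-type mice that carry Vav-Cre with intact Nfat5 (WT), Nfat5 fl/fl Vav-Cre mice (N5), IFNAR1-deficient mice (IFNAR), and mice with both defects (DKO). All donor marrow carried CD45.2 and was placed in irradiated wild-type CD45.1 recipients, from which donor cells were sorted 13 weeks later, with 5 recipients per pool and equal cell numbers per recipient. Vav-Cre acts across blood-forming cells. The labels name no Cre for the IFNAR donors and give no ages.

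Type I interferons bind a receptor made of IFNAR1 and IFNAR2, whose kinases JAK1 and TYK2 start a signal that ends in the transcription factor complex ISGF3. ISGF3 binds the interferon-stimulated response element in the promoters of target genes. The effectors described here are such targets: proteins that tag, bind, trap or degrade viral and host molecules, and a low tonic level of many of them is kept in resting blood stem cells. NFAT5 is a transcription factor best known for its part in the answer to high osmolarity.

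Levels are CPM, the gene's share of a library's counts on a common scale after TMM normalization, and the libraries held 28871693 to 47205950 counts. Each group was 1 library, so each factor was read over 4 disjoint pairs of libraries that share the other labels. The Ifnar1 and Nfat5 fits were not paired. Their spread came from the terms left out of the model, which include any difference in a factor's effect between cell types. The p-values measure only the spread between these libraries. The labels do not say whether HSC and MPP of a genotype came from the same recipients. The transcripts of the targeted genes did not follow the labels. Nfat5 had 33.1, 22.7, 3.12 and 35.5 CPM in HSC (order WT, N5, IFNAR, DKO, as throughout) and 5.59, 7.69, 0.193 and 11.5 CPM in MPP. Ifnar1 had 122, 126, 113 and 35.1 CPM in HSC and 37.2, 87.9, 43.8 and 125 CPM in MPP. Counts summed over a gene check nothing where the exons that remain are still transcribed, and which exons were deleted is not stated in the labels used here. Every direction below therefore rests on the libraries' labels. Sorting markers followed the cell type labels: Slamf1 (CD150) had 52.2 to 90.0 CPM in HSC and 0 to 0.0275 CPM in MPP, and Cd48 had 0 to 6.36 CPM in HSC and 202 to 284 CPM in MPP.

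Promoter sequences are shown for the members that carry the response element and were lower in every Ifnar1 pair, since it is the element through which ISGF3 acts. The motif searched was GAAA, any 2 bases and another GAAA, on either strand, overlaps included, in windows from 250 bases before to 50 bases after the start site (RefSeq, GRCm38.p6, an earlier build than the files' GRCm39). A window was found for 27 of the 38 members, and 12 of these 27 genes held the motif (44.4%). It stood in 3.99% of all 27025 genes with a window. Of the 10 members with a window that were lower in all 4 Ifnar1 pairs, 6 held the motif (60.0%), against 6 of the 17 other members (35.3%). A match is a stretch of letters, not a measured binding site. The shorter STAT motif TTCNNNGAA stood in 4 of the 27 members (14.8%) and in 9.55% of all genes.

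The 200 bases before the start site follow, 5′ to 3′ on the gene's own strand, with matches to this motif or its reverse complement in capitals. The windows lie on GRCm38.p6 at chr4:156200819-156201018 (minus strand) for Isg15, chr19:34583329-34583528 (plus) for Ifit3, chr12:26456453-26456652 (minus) for Rsad2, chr14:59341331-59341530 (minus) for Phf11b, chr11:78984925-78985124 (minus) for Lgals9, chr8:71537473-71537672 (minus) for Bst2 and chr19:34607757-34607956 (plus) for Ifit3b. Ifit3b, which is not among the lower members, was added after its values were seen, for contrast with Ifit3.
Isg15: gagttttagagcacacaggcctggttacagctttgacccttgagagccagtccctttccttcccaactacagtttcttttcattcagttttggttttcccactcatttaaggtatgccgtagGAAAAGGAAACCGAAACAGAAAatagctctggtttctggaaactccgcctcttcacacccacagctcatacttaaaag
Ifit3: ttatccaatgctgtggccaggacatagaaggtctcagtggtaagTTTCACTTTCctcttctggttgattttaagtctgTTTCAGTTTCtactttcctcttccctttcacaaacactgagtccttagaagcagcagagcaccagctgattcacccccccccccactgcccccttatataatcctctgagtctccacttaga
Rsad2: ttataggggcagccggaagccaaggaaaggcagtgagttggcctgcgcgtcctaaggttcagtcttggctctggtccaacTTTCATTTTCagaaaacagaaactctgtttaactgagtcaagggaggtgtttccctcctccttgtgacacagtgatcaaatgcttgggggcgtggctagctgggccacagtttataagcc
Phf11b: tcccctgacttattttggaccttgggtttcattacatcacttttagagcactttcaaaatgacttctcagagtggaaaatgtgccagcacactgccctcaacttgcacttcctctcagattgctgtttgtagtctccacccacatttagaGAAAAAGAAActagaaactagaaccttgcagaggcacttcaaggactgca
Lgals9: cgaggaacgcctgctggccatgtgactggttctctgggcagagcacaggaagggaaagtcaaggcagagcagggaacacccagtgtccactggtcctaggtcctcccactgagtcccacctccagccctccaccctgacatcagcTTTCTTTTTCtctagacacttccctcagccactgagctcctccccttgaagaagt
Bst2: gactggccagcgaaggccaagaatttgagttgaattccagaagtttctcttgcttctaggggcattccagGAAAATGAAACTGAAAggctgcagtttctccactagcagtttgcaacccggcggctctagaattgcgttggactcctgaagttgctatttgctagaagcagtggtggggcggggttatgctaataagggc
Ifit3b: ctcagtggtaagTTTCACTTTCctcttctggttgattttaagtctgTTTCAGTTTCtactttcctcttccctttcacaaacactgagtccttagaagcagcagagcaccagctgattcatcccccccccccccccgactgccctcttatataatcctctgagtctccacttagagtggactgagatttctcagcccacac
The Isg15 promoter held 3 overlapping matches, which begin 78, 72 and 66 bases before the start site, and Bst2 held 2 overlapping ones. Over the full windows of 300 bases, Ifit3 and Ifit3b were identical at 258 of 260 aligned bases (99.2%), with gaps and unaligned ends left out. Both matches stood in each.

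The question of the Ifnar1 comparison (IFNAR with WT, DKO with N5, in each cell type) is how far the effectors rest on the interferon receptor. Here 15 of the 38 members were lower in all 4 pairs of libraries, and 0 were higher in all 4. Among all genes tested 6.16% were lower in all 4 pairs and 5.9% higher. A further 10 members were lower in 3 pairs, 10 in 2 and 3 in 1. In 7 members every library labelled IFNAR or DKO lay below every library labelled WT or N5, whatever the cell type, where 1.37% of all genes did: Isg15, Ifit3, Ifi27l2a, Ifi27, Ifi44, Cmpk2 and Rtp4. In none did the groups separate the other way (1.01% of all genes).

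Of the 34 members tested, 28 had a negative log2 fold change and 6 a positive one, with a median of -0.68 beside -0.01 for all genes tested. Isg15 had 0 counts in all 4 libraries labelled Ifnar1-deficient. Set at its bound it stays well below the median, so the median of -0.68 could not change. The median over tested members was -0.78 and -0.55 in the HSC pairs (IFNAR against WT, DKO against N5) and -0.85 and -0.69 in the MPP pairs. A gene that passes the filter only through the libraries where it is high must differ between groups, so these figures describe the tested members and support nothing. No member passed edgeR's quasi-likelihood test with Benjamini-Hochberg adjustment, nor did any gene of the table (0% called). At an unadjusted p under 0.05, edgeR had 8 members lower and 0 higher, where 2.02% of all genes were lower and 1.26% higher. DESeq2 called 9 members lower and 0 higher (1.27% and 0.651% of all genes) and limma-voom 0 (0.00824% of all genes in either direction). In bulk libraries, fewer cells that hold a transcript and less of it per cell cannot be told apart.

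**Figure D1:**
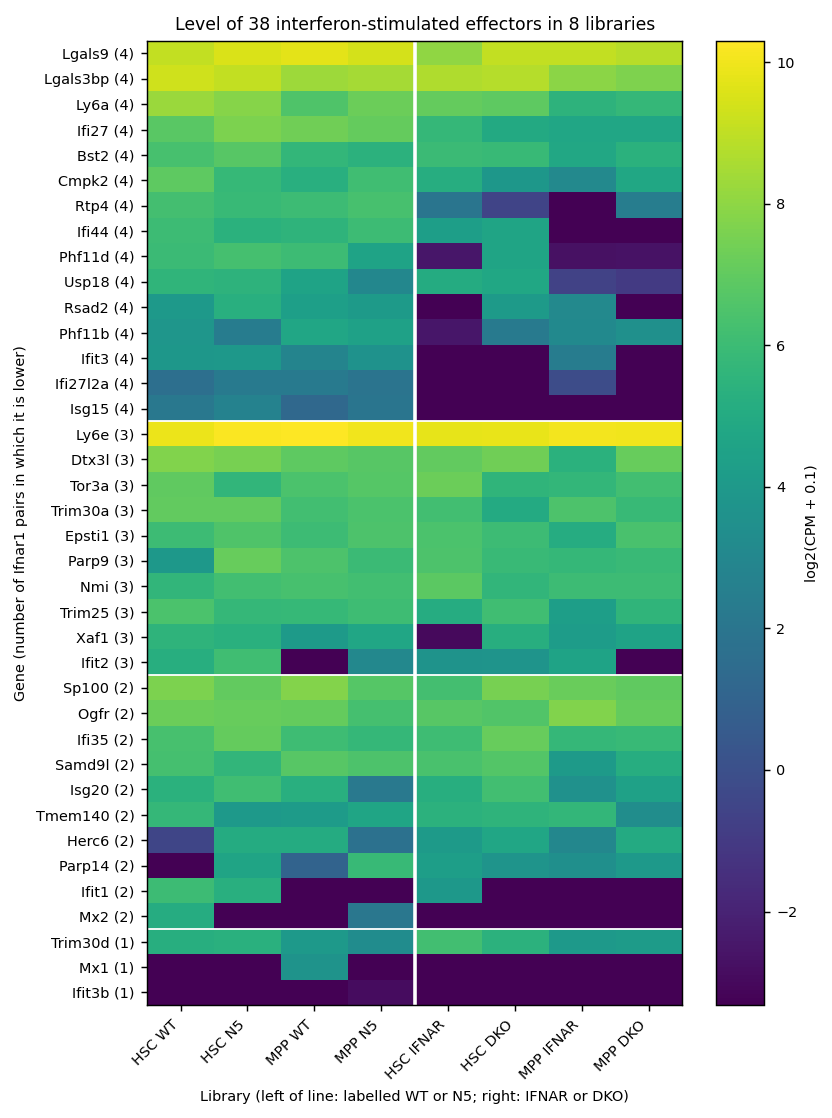
Level of each of the 38 members, as log2(CPM + 0.1) by colour, in the 8 libraries (columns). Rows are ordered by the number of Ifnar1 pairs in which the gene was lower, in brackets, and the white vertical line parts libraries labelled WT or N5 from those labelled IFNAR or DKO. In the first 15 rows, the members lower in all 4 pairs, each library right of the line is below its partner left of it. In 7 of these rows every library right of the line is below every library left of it, and in the others the groups overlap. Isg15 is at 0 in all 4 libraries right of the line.

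Of the genes of the ISG15 system, the tag itself was at 0 counts in all 4 libraries labelled IFNAR or DKO. Isg15 (ENSMUSG00000035692.8) encodes a ubiquitin-like protein that is joined to other proteins. It had 4.35, 6.56, 0 and 0 CPM in HSC, from 150, 201, 0 and 0 counts. In MPP it had 2.35, 3.83, 0 and 0 CPM, from 71, 109, 0 and 0 counts. A count of 0 allows up to 0.0633 to 0.0849 CPM in these libraries at 3 counts, so Isg15 was at least 55.6-fold lower on the ratio of group means, a bound that covers counting error only. The unadjusted edgeR p was 0.00286 and the edgeR adjusted p = 1, with adjusted p = 4.13e-08 in DESeq2.

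Usp18, the protease that removes ISG15 and also restrains receptor signalling, had 48.5, 44.1, 33.3 and 28.1 CPM in HSC and 24.2, 7.83, 0.55 and 0.396 CPM in MPP. It was lower in each pair, by little in HSC and down to 0.396 CPM in MPP, and the groups overlapped across cell types (log2 fold change -2.74, SE 1.3, edgeR adjusted p = 1). Herc6, the main ligase for ISG15 in mice, was lower in 2 pairs and higher in 2, with 0.609, 33.3, 16.99 and 26.3 CPM in HSC and 33.6, 3.27, 7.7 and 32.2 CPM in MPP. Of the 50-base stretches of Herc6, 12.5% occur in another annotated gene. Trim25, a ubiquitin ligase of the RIG-I pathway, ranged over 53.8 to 85.9 CPM in libraries labelled WT or N5 and 20.2 to 69.8 CPM elsewhere, with 1 pair of the 4 (HSC DKO and N5) running higher.

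The IFIT proteins bind viral RNA ends. Ifit3 had 14.9, 15.1, 0 and 0 CPM in HSC and 7.11, 12.3, 5.12 and 0 CPM in MPP. Of the 4 libraries labelled IFNAR or DKO only the MPP library labelled IFNAR held any count of it, and that value lay below all 4 of the other group (log2 fold change -7.63, SE 4.29, edgeR adjusted p = 1; DESeq2 adjusted p = 0.0199). Its near copy Ifit3b had 1 count in all 8 libraries together. Of the 50-base stretches of Ifit3 transcripts, 51.2% also occur in another gene, chiefly Ifit3b, so the split of reads between them is uncertain.

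Ifit1 was seen in 3 HSC libraries alone, at 65.2, 39.1, 15.3 and 0 CPM, and had 0 counts in all 4 MPP libraries, which left it below the filter. Ifit2 had 37.3, 69.3, 12.7 and 13.4 CPM in HSC, lower in both pairs. In MPP it had 0, 8.22, 24.1 and 0 CPM, higher in the pair of IFNAR and WT and lower in the other, so its order was not the same across cell types.

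Among further antiviral proteins, Rsad2 (viperin) makes a chain-terminating nucleotide, and its chromosomal neighbour Cmpk2 a nucleotide kinase of mitochondria. Rsad2 had 16.03, 38.98, 0 and 17.01 CPM in HSC and 20.3, 17.4, 8.34 and 0 CPM in MPP. It was at 0 in 1 HSC and 1 MPP library of the Ifnar1-deficient label, and the HSC library labelled DKO lay within the range of the other group. Cmpk2 had 122, 55.8, 36.5 and 14.5 CPM in HSC and 39.05, 69.95, 8.28 and 27.7 CPM in MPP, with no overlap between groups but a narrow gap, from 36.5 to 39.05 CPM (log2 fold change -1.70, SE 0.61, edgeR adjusted p = 1).

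Bst2 (tetherin), which holds budding virus at the cell surface, had 80.1, 108, 62.03 and 57.7 CPM in HSC and 51.1, 43.7, 29.2 and 41.1 CPM in MPP, lower in each pair by 0.09 to 0.91 on the log2 scale. The antiviral GTPase genes Mx1 and Mx2 were scarce and did not pass the filter. Mx1 had 12.8 CPM in the MPP library labelled WT and 0 in the other 7. Mx2 had 34.8 CPM in the HSC library labelled WT, 4.14 CPM in the MPP library labelled N5 and 0 in the other 6.

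Ifi27, which encodes a small hydrophobic membrane protein, had 111, 196, 54.3 and 31.1 CPM in HSC and 165, 134, 26.99 and 26.6 CPM in MPP. The highest library labelled IFNAR or DKO, at 54.3 CPM, lay below the lowest of the others, at 111 CPM. Its unadjusted p of 0.000485 was the smallest among members (log2 fold change -2.17, SE 0.33, edgeR adjusted p = 0.992; DESeq2 adjusted p = 2.29e-08). The related Ifi27l2a had 3.1, 4.79, 0 and 0 CPM in HSC and 4.86, 3.65, 0.798 and 0 CPM in MPP, again without overlap.

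Ifi44, an interferon-induced protein of the cytoplasm, had 64.1, 42.2, 20.1 and 24.4 CPM in HSC and 45.7, 63.8, 0 and 0 CPM in MPP. Both MPP libraries of the Ifnar1-deficient label were at 0, while those of HSC kept 20.1 and 24.4 CPM. The partners Ifi35 and Nmi, lower in 2 and 3 pairs, overlapped widely between groups. Ifi35 ranged over 54.7 to 136 CPM in libraries labelled WT or N5 and 53.2 to 141 CPM in the others, and Nmi over 49.2 to 81.8 and 49.2 to 118 CPM.

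Rtp4, a chaperone of membrane receptors that also acts on flavivirus replication, had 73.96, 57.6, 3.81 and 0.591 CPM in HSC and 63.8, 81.4, 0 and 5.46 CPM in MPP. The groups lay far apart, at 57.6 to 81.4 CPM and 0 to 5.46 CPM (log2 fold change -4.84, SE 1.64, edgeR adjusted p = 1; DESeq2 adjusted p = 0.00815). With edgeR's bias-adjusted quasi-likelihood, Rtp4 was the member that passed (adjusted p = 0.0364). The share of all genes called in that fit is not given here, so this call cannot be set against a background. Of its 50-base stretches 11.6% occur in another annotated gene.

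Phf11d, a zinc finger protein gene of a small cluster, had 62.9, 78.05, 0.0766 and 25.04 CPM in HSC and 65.8, 23.9, 0.055 and 0.0566 CPM in MPP. It was near 0 in 3 of the 4 libraries labelled IFNAR or DKO, and the HSC library labelled DKO overlapped the other group (log2 fold change -6.57, SE 2.92, edgeR adjusted p = 1; DESeq2 adjusted p = 0.00064). Its neighbour Phf11b had 14.4, 5.12, 0.0766 and 4.62 CPM in HSC and 26.7, 22.2, 8.67 and 11.3 CPM in MPP, and 47.0% of its 50-base stretches occur elsewhere, chiefly in Phf11d.

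**Figure D2:**
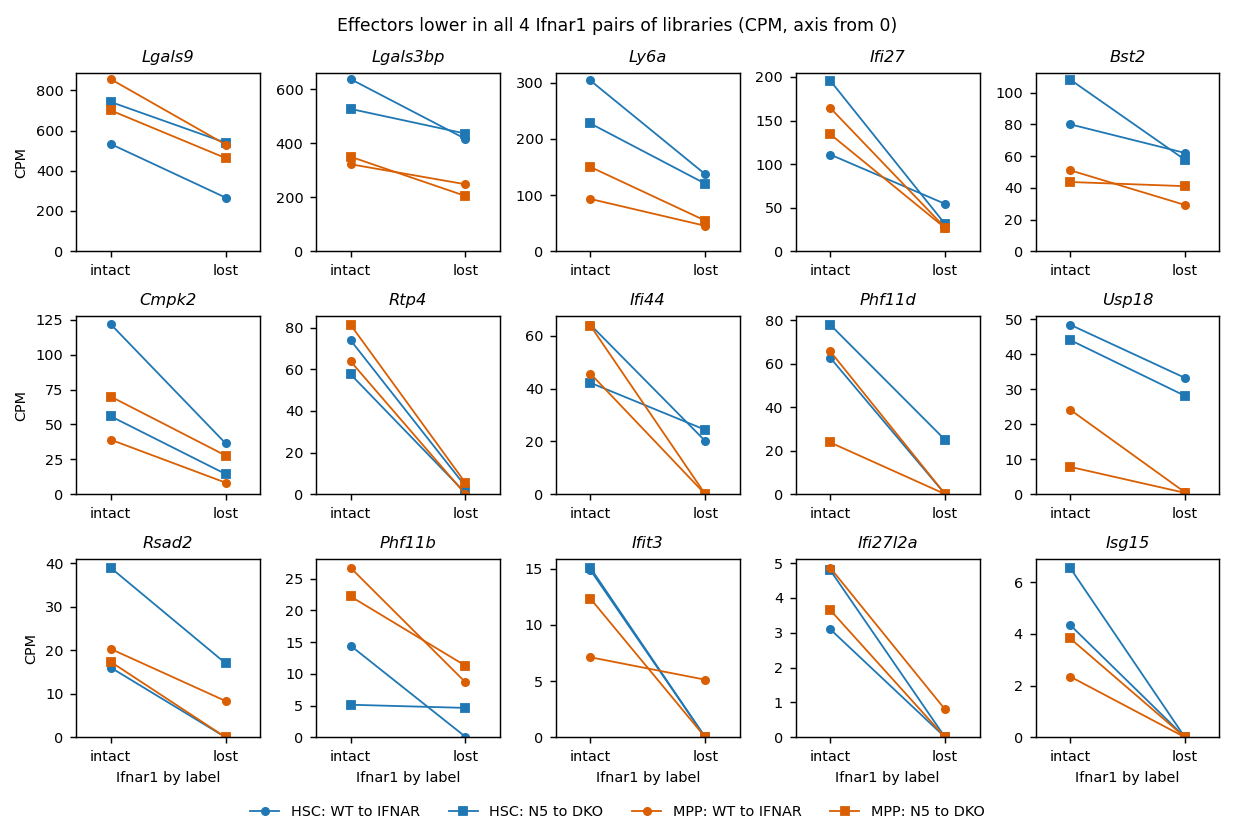
CPM of the 15 members lower in all 4 Ifnar1 pairs, on axes from 0, with 1 line per pair from the library labelled as Ifnar1-intact to the one labelled as lost. HSC are blue and MPP orange, circles are the WT and IFNAR pairs and squares the N5 and DKO pairs. Isg15 ends at 0 in all 4 pairs, and Bst2 differs little in the MPP pair of N5 and DKO (43.7 and 41.1 CPM).

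Of the members that encode surface proteins, secreted proteins and galectins, Ly6a, Lgals3bp and Lgals9 were lower in all 4 pairs and Ly6e in 3. Ly6a encodes Sca-1, on which the LSK gate was set, so its level is not independent of the sort. It had 304, 228, 137 and 120.3 CPM in HSC and 93.1, 150.1, 45.2 and 54.5 CPM in MPP, lower in the 4 pairs by 0.92 to 1.46 on the log2 scale (log2 fold change -1.16, SE 0.22, edgeR adjusted p = 1; DESeq2 adjusted p = 0.000374). The groups did not overlap within either cell type. Of the 50-base stretches of Ly6a, 19.0% occur in another gene, chiefly Ly6c1. Kit, the other surface marker of the gate, had 1087 to 1157 CPM in HSC and 773 to 1010.0 CPM in MPP.

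Lgals3bp, a secreted glycoprotein that binds galectins, had 637, 527, 416 and 435 CPM in HSC and 322, 349.6, 248 and 204 CPM in MPP. Its groups did not overlap within HSC or within MPP (log2 fold change -0.51, SE 0.12, edgeR adjusted p = 1; DESeq2 adjusted p = 0.00418). Lgals9, a galectin, had 533, 742, 267 and 539.7 CPM in HSC and 856, 700.4, 531 and 463 CPM in MPP, lower in each pair by 0.46 to 1 on the log2 scale (log2 fold change -0.67, SE 0.23, edgeR adjusted p = 1). Ly6e, a surface protein that blocks coronavirus entry, had the most counts, at 975.2 to 1264 CPM in libraries labelled WT or N5 and 888 to 1080.0 CPM in the others, and the groups overlapped.

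The ADP-ribosylation group had no common order. Parp9 and Dtx3l encode an enzyme complex and are transcribed from 1 shared promoter region. Parp9 had 15.01, 143, 89.5 and 59.4 CPM in HSC and 91.3, 62.5, 52.9 and 59.1 CPM in MPP, and Dtx3l had 215, 182, 132 and 161 and 122, 108, 42.3 and 143 CPM. Each was lower in 3 pairs, and the odd pair was HSC IFNAR and WT for Parp9 but MPP DKO and N5 for Dtx3l. Parp14, a mono-ADP-ribosyltransferase gene, had 0 counts in the HSC library labelled WT, in which Herc6 and Parp9 also had their lowest level. Its levels were 0, 24.3, 19.6 and 13.3 CPM in HSC and 1.89, 57.4, 10.8 and 16.1 CPM in MPP, lower in 2 pairs.

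Trim30d, a TRIM protein gene beside Trim30a, was the 1 member that was higher in 3 pairs, at 36.9, 40.6, 72.4 and 42.9 CPM in HSC and 16.5, 9.76, 16.04 and 17.8 CPM in MPP (log2 fold change 0.47, SE 0.46, edgeR adjusted p = 1). Trim30a, which restrains TLR signalling, was lower in 3 pairs and had 73.3 to 129.7 CPM against 31.6 to 89.2 CPM. The 2 genes share 5.98% and 7.49% of their 50-base stretches with other genes.

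The remaining members had smaller or mixed differences. Epsti1, Tor3a and the apoptosis factor gene Xaf1 were lower in 3 pairs, and Xaf1 had 46.5, 40.05, 0.0255 and 37.5 CPM in HSC and 17.2, 26.8, 18.2 and 23.8 CPM in MPP, with a single count in the HSC library labelled IFNAR. Sp100, a nuclear body protein gene, the exonuclease gene Isg20, the translation and endosome regulator gene Samd9l, the opioid growth factor receptor gene Ogfr and Tmem140 were lower in 2 pairs and higher in 2. Their fitted log2 fold changes ran from -0.70 for Samd9l to 0.38 for Tmem140.

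Members were also split by level. By mean CPM over all 8 libraries, 6 lay under 10 CPM, 25 at 10 to under 100 and 7 at 100 and over. Of these, 3, 9 and 3 were lower in all 4 Ifnar1 pairs, beside 4.66%, 6.28% and 7.61% of all tested genes of the same class. The median log2 fold change of tested members was -7.63 over 3 members under 10 CPM, -0.69 over 24 and -0.46 over 7, classes of which 2 hold few members, where all genes of these classes had 0, 0 and -0.02. The value -7.63 is that of Ifit3, whose group means were 12.3 and 1.28 CPM, so it is not the ratio of these means. The fitted value of Isg15, at 0 in a whole group, depends on the fit's prior count.

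Split by the mean over libraries labelled WT and N5, the classes held 5, 24 and 9 members, of which 2, 9 and 4 were lower in all 4 pairs, beside 3.04%, 6.27% and 9.71% of all tested genes of these classes. Per kilobase of exon (lengths from GENCODE M21), mean levels ran from 0.00219 CPM per kb for Ifit3b to 279 for Ly6e. Lgals9 (271 CPM per kb), Lgals3bp (138) and Ly6a (117) came next to Ly6e, and Isg15 had 2.82 CPM per kb. A count of 0 in some library was seen in 12 of the 38 members, all with a mean under 100 CPM over 8 libraries. These were 6 of 6 members under 10 CPM (3 of them tested) and 6 of 25 at 10 to under 100. Of all tested genes in these 2 classes, 60.8% and 22.3% had a count of 0 in some library. Of tested members 23.5% had 0 counts in at least 1 library and at least 100 in another, beside 26% of all genes.

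**Figure D3:**
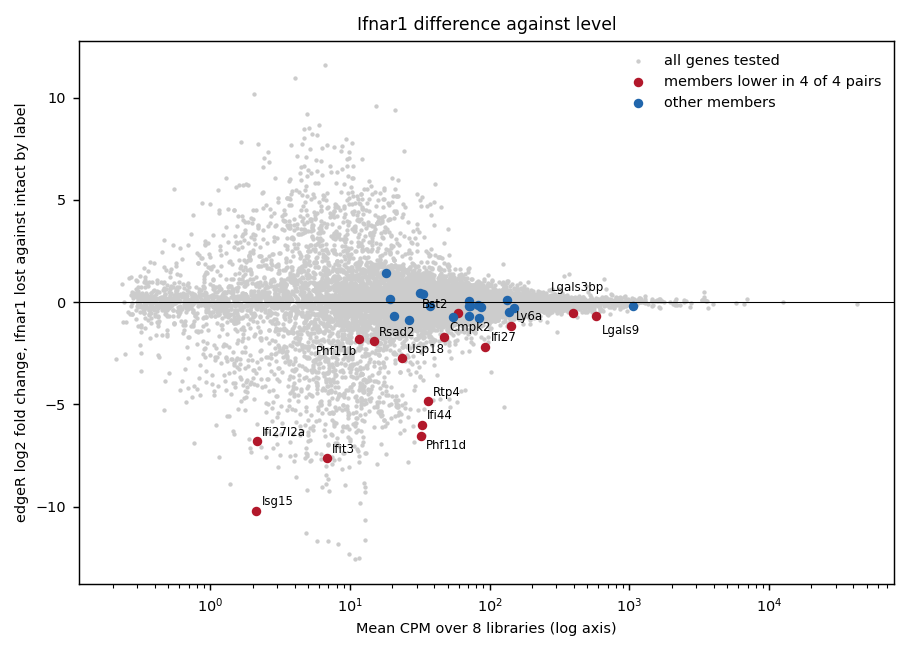
edgeR log2 fold change for Ifnar1 loss by label (vertical) against mean CPM over 8 libraries (horizontal, log axis) for all 12132 genes tested in grey, with members lower in all 4 pairs in red and other tested members in blue. The 7 members at 100 CPM and over have a median of -0.46, and Isg15, Ifit3, Ifi27l2a, Phf11d, Ifi44 and Rtp4 lie at -4.84 or below. The value of Isg15, at 0 in a whole group, depends on the prior count. Others can exceed the ratio of group means, as for Phf11d (57.6 and 6.31 CPM, fitted 94.8-fold).

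The summed level of all 38 members was 3781 to 4874 CPM in the libraries labelled WT or N5 and 2893 to 3475 CPM in those labelled IFNAR or DKO, without overlap. Leaving out Ly6e, Lgals9, Lgals3bp and Ly6a, the sums were 1542 to 2165 and 1009 to 1456 CPM. The median member had 48.4 to 63.5 CPM in the first group and 17.5 to 36.7 CPM in the other. With HSC and MPP pooled, as in the ranges below, the summed markers of every other cell type listed overlapped between these groups. Within a cell type some sums did not overlap, those of the sorted cells' own markers among them. HSC markers had 947 and 902 CPM in HSC WT and N5 against 1086 and 1212 CPM in HSC IFNAR and DKO. MPP markers, mostly Mpo, had 9432 and 6812 against 11750 and 10260 CPM in MPP. Of these lists, 2 of 7 HSC and 2 of 5 MPP markers had a negative log2 fold change. Ly6a and Kit together had 1452 and 1385 against 1225 and 1227 CPM in HSC. Megakaryocyte markers had 487 and 693 CPM in HSC WT and N5 against 359 and 402 CPM in HSC IFNAR and DKO. In MPP, neutrophil markers had 1340 and 545 CPM (WT, N5) against 1915 and 1810 CPM (IFNAR, DKO). Elane made up most of that sum, with 782 and 418 against 1397 and 1144 CPM. S100a8 and S100a9 also separated in MPP, while Ltf, Camp and Ngp overlapped. Erythroid markers in MPP had 143 and 84.8 against 328 and 189 CPM. B cell, monocyte and macrophage, and dendritic cell sums overlapped within both. Summed neutrophil markers (6 of 6 measured) ran from 545 to 1340.0 CPM under WT and N5 and from 572 to 1915 CPM under IFNAR and DKO, and monocyte and macrophage markers (5 of 7 tested) from 489 to 1060.0 and from 696 to 973 CPM. B cell markers (4 of 8 tested) ran from 34.7 to 75.9 and from 30.7 to 109 CPM. Of the T and NK cell markers (0 of 6 tested) Cd3e and Cd3d were at 0 in every library. Flt3, listed as a marker both of MPP and of dendritic cells, had 557 to 720 CPM in MPP and made up most of the dendritic sum there. Dendritic cell markers (2 of 6 tested) had sums of 67.8 to 809 and 70.9 to 802 CPM. Of those not tested, Siglech had 3.04 and 12.9 CPM in MPP WT and IFNAR, Ccr9 had 21.3 and 3.2 CPM in MPP WT and N5, Itgax had 12.6 and 24.55 CPM in HSC and MPP N5, and Batf3 had 1.76 CPM in MPP N5, each with 0 in every other library. Megakaryocyte markers (5 of 5 tested) had a negative log2 fold change in all 5, with sums of 48.4 to 693 and 50.3 to 402 CPM and none lower in all 4 pairs. The part of such cells in the Ifnar1 differences was not tested.

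Whether the Ifnar1 difference itself differed between cell types was tested as an interaction, and 0 of 34 members passed edgeR (0% of all genes called; 3 members higher in HSC and 1 lower at an unadjusted p under 0.05, beside 2.74% and 2.09% of all genes). DESeq2 called 4 members, beside 2.9% of all genes higher and 2.1% lower, and limma-voom 0. Those 4 were Ifi44, Usp18 and Samd9l, whose difference was more negative in MPP, and Ogfr, the reverse. Samd9l had 77.1, 50.2, 83.4 and 101 CPM in HSC, higher in both pairs, and 111, 90.3, 16.8 and 36.1 CPM in MPP, lower in both. Ogfr had 152, 139, 111 and 96.7 CPM in HSC, lower in both pairs, and 133, 76.9, 209.6 and 136 CPM in MPP, higher in both. In edgeR the interaction of Ifi44 had adjusted p = 0.748 and the other 3 had 0.94 to 0.999.

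The 22 members lower in both HSC pairs were 57.9% of the 38, and the 21 lower in both MPP pairs 55.3%, where 24.3% and 25.2% of all genes were. The interaction of Ifnar1 with Nfat5 loss likewise gave 0 members in edgeR (0% of all genes) and 0 at an unadjusted p under 0.05 (1.71% of all genes lower and 1.62% higher). DESeq2 called Ifit2 lower and Phf11d higher for it, beside 1.57% and 1.67% of all genes, and limma-voom called none.

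The HSC and MPP libraries of each genotype formed the pairs of the next comparison. Of the 38 members, 8 were higher in HSC in all 4 genotypes (9.81% of all genes) and 1, Phf11b, was lower in all 4 (12% of all genes). In 5 members every HSC library lay above every MPP library, where 4.73% of all genes did: Lgals3bp, Bst2, Usp18, Ifi35 and Trim30d. The other 3 were Ly6a, Dtx3l and Isg20. Over 34 tested members the median log2 difference was 0.36, beside -0.10 for all genes, with 23 higher and 11 lower in HSC.

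Usp18 had 28.1 to 48.5 CPM in HSC against 0.396 to 24.2 CPM in MPP (log2 fold change 3.92, SE 1.44, edgeR adjusted p = 0.461). Lgals3bp had 416 to 637 against 204 to 349.6 CPM (log2 fold change 0.85, SE 0.13, edgeR adjusted p = 0.169). Trim30d had 36.9 to 72.4 against 9.76 to 17.8 CPM, and Ifi35 68.3 to 141 against 53.2 to 67.5 CPM. Ifit2 and Ifi44 had the largest fitted differences besides Usp18, at 6.02 (SE 3.89) and 4.73 (SE 4.26), and both had MPP libraries at 0. On the lower side were Phf11b (-2.35, SE 1.48), Ifi27l2a (-1.38, SE 1.90) and Parp14 (-1.25, SE 1.78).

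No member passed edgeR in this comparison, where 0.0165% of all genes did. At an unadjusted p under 0.05 there were 7 members higher and 0 lower, beside 4.45% and 5.65% of all genes. DESeq2 called 9 members higher and 0 lower (6.87% and 8.6% of all genes) and limma-voom 0 (1.29% of all genes in either direction).

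**Figure D4:**
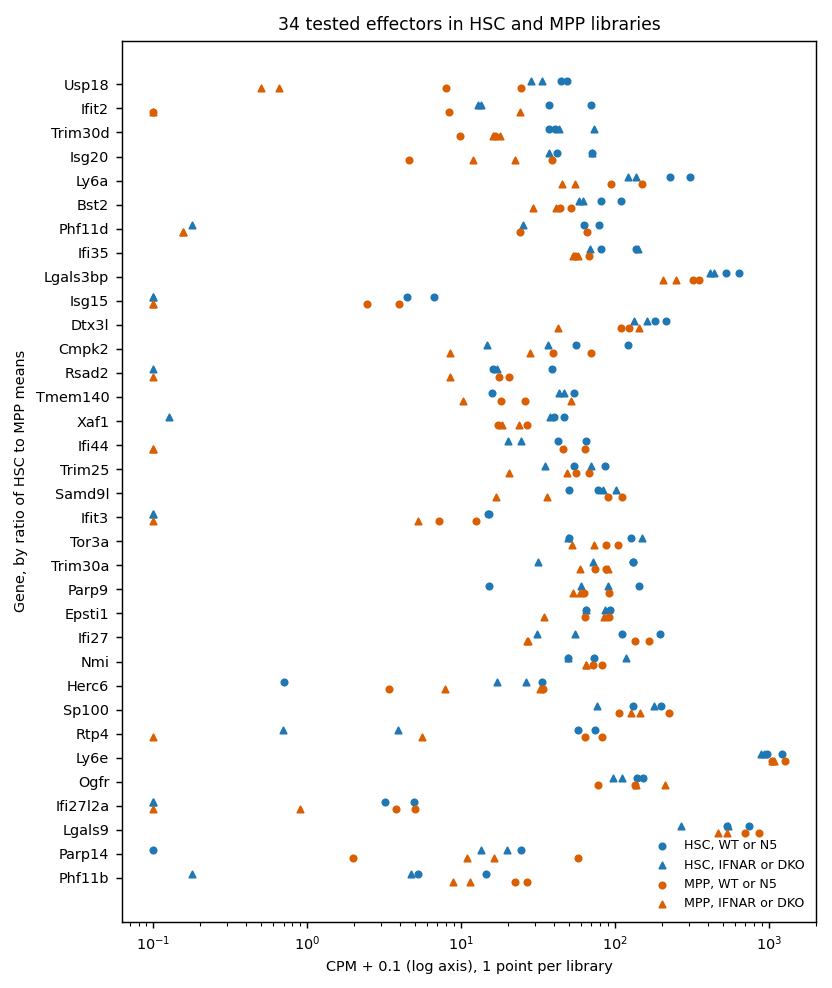
CPM + 0.1 (horizontal, log axis) of the 34 tested members in each of 4 HSC (blue) and 4 MPP (orange) libraries, ordered by the ratio of the HSC to the MPP mean. Circles are libraries labelled WT or N5 and triangles those labelled IFNAR or DKO. Blue and orange do not overlap for Lgals3bp, Bst2, Usp18, Ifi35 and Trim30d.

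For Nfat5 loss the pairs were N5 with WT and DKO with IFNAR. They use the same 8 libraries as those for Ifnar1. Of the 38 members 0 were higher in all 4 pairs and 2, Usp18 and Ogfr, were lower in all 4, beside 5.79% and 5.35% of all genes. The groups separated in 0 members, where 1.26% of all genes were separated upward and 1.01% downward. Over tested members the median log2 difference was 0.08, beside 0.02 for all genes, and its sign changed when the HSC library labelled WT (-0.05) or DKO (-0.03) was left out. Ogfr had 152, 111, 133 and 210 CPM in the libraries labelled HSC WT, HSC IFNAR, MPP WT and MPP IFNAR, and 139, 96.7, 76.9 and 136 CPM in their Nfat5-deficient partners.

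The largest fitted differences for Nfat5 loss were those of Parp14 (2.71, SE 2.53), Phf11d (1.94, SE 3) and Xaf1 (0.85, SE 1.52) upward, and of Ifit3 (-3.08, SE 3.52), Ifi27l2a (-1.92, SE 2.38) and Usp18 (-0.81, SE 1.04) downward. For all but Parp14 the SE exceeded the difference. Leaving out 1 library turned the sign of Phf11d (-0.31 without HSC DKO), Usp18 (0.27 without MPP WT), and Ifit3 (0.37) and Ifi27l2a (0.08) without MPP IFNAR. No member passed edgeR (0% of all genes), DESeq2 (0.684% of all genes in each direction) or limma-voom (0% of all genes), and 0 had an unadjusted p under 0.05 in edgeR (1.38% of all genes lower and 1.41% higher).

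Other genes of the pathway were read from 2 lists, receptors and signalling (12 of 12 tested) and further interferon-stimulated genes (26 of 29 tested). For Ifnar1 loss 7 signalling genes had a negative and 5 a positive log2 fold change (median -0.24), and among the further genes 22 were negative and 4 positive (median -0.52). None passed edgeR, and 9 were lower at an unadjusted edgeR p under 0.05, beside 2.02% of all genes. DESeq2 called 6 of them lower and 0 higher, beside 1.27% and 0.651% of all genes. Of the 38 tested, 13 were lower in all 4 pairs (34.2%, beside 6.16% of all genes) and 2 higher in all 4 (5.26%, beside 5.9%).

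Irf9 and Stat2 encode partners in ISGF3, and of these only Irf9 had groups that did not overlap. Irf9 had 126, 237, 46.4 and 31.5 CPM in HSC and 85.2, 154, 50.02 and 44.7 CPM in MPP, with no overlap between groups (log2 fold change -1.72, SE 0.37, edgeR adjusted p = 1; DESeq2 adjusted p = 0.000444). Stat2 was higher in all 4 pairs, as 5.9% of all genes were, by 0.02 to 0.79 on the log2 scale with overlapping groups. It had 56.98, 96.5, 94.7 and 98.1 CPM in HSC and 42.4, 32.5, 44.5 and 56.4 CPM in MPP (log2 fold change 0.38, SE 0.28, edgeR adjusted p = 1). Irf7, which amplifies interferon output, had 58.1, 31.3, 31.96 and 25.1 CPM in HSC and 5, 40.9, 16.2 and 7.25 CPM in MPP, lower in 3 pairs. For Nfat5 loss and both interactions none of the 38 passed edgeR, and for HSC against MPP the smallest adjusted p was 0.0547.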

How the data were processed

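The values are raw gene counts, all whole numbers, which the authors deposited for 8 libraries of polyadenylated RNA, made with Smart-Seq2, which keeps neither strand nor molecular identifiers, per the labels' protocols. STAR 2.7.8a, RSEM 1.3.0 and GRCm39 are named in the submitters' processing notes, and the annotation release is not given in the sources used here. Reads of near-identical genes, and of genes that overlap on opposite strands, may therefore be split or shared.

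From the counts, genes were kept by edgeR's filterByExpr by cell type (12132 genes, 99.46% of counts), scaled by TMM and tested with edgeR 4.0.16 (quasi-likelihood) in R 4.3.3, with Benjamini-Hochberg adjustment over all genes and a threshold of 0.05. The Ifnar1 and Nfat5 fits held cell type, Nfat5 and Ifnar1 as terms (4 residual degrees of freedom), and the comparison of HSC with MPP held genotype (3). Interactions had 3. Log2 pair differences used a prior count of 2, and a count of 0 was bounded by 3 counts. The common dispersion was 1.05 to 1.14. The tests were tried on simulated data. At a like spread edgeR recovered no changed gene and limma-voom hardly any, while DESeq2 recovered many of the large changes together with false calls, so neither a count of 0 in edgeR nor a call by DESeq2 alone settles whether a gene differed. DESeq2 1.42.0, limma-voom 3.58.1, other filters, priors, scalings, thinning and leaving out each library were alternatives.

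The members and lists were chosen with earlier results of these data known. Values in every library are given for members lower in all 4 Ifnar1 pairs, those higher in at least 3 with a mean of at least 10 CPM, those called, and the 3 with the largest difference in each direction for HSC against MPP and for Nfat5 loss; some others were added after their values were seen. The values of 1 gene of the pathway list are not reported here. Intervals and bounds cover counting error only.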

Additional observations from a re-analysis of the deposited data

How the results depend on the processing

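The 15 members lower in all 4 Ifnar1 pairs were the same 15 genes with DESeq2 size factors and after thinning to the smallest library. A prior count of 0.5 or 5 could not change them, since it was scaled to each library and keeps the order within a pair. Leaving out 1 pair at a time, chosen after seeing the data, can only keep or add members. It gave 16 to 19 members lower in the remaining pairs, beside 12.1 to 12.3% of all genes. Calls depended on the tool. For Ifnar1 loss edgeR called 0 members and DESeq2 9, all lower, beside 1.27% of all genes lower and 0.651% higher. Bias-adjusted quasi-likelihood called 1 (share of all genes not given). DESeq2 also called 9 members for HSC against MPP, beside 6.87% of all genes higher and 8.6% lower. It called 4 for Ifnar1 by cell type (2.9% and 2.1%) and 2 for Ifnar1 by Nfat5 (1.67% and 1.57%). In each of these edgeR called 0 members. The cause was not tested.

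The Ifnar1 median over tested members was -0.54 with a filter at 10 CPM, which drops genes, -0.98 with the WT and IFNAR libraries alone and -0.53 with the N5 and DKO libraries alone. Leaving out each library in turn gave -0.68 to -0.51 for Ifnar1, 0.25 to 0.53 for HSC against MPP and -0.05 to 0.27 for Nfat5, with 0 members called by edgeR in all 5 comparisons. For Nfat5 loss the same runs gave -0.31 to 4.85 for Phf11d (lowest without the HSC library labelled DKO), -1.62 to 0.27 for Usp18 (highest without MPP WT), and -6.09 to 0.37 for Ifit3 and -3.8 to 0.08 for Ifi27l2a (both highest without MPP IFNAR), so each of these 4 changed sign. With 100 CPM as the bound, 7 members were in the highest class by the mean of all libraries and 9 by that of the WT and N5 libraries. A block for each pair of libraries, chosen after seeing the data, left edgeR's calls at 0 for Ifnar1 and Nfat5 loss, with medians of -0.7 and 0.1. The labels carry no replicate numbers.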
